A study of Mus musculus with 20 samples.

Results

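The genes of sterol and fatty acid synthesis were followed in the embryonic mouse forebrain, in wild-type (WT) and Ts1Cje embryos whose parents ate chow with or without apigenin. The set has 34 genes, listed by name for their known roles in making cholesterol and fatty acids and in sensing or moving sterols. Of these, 31 had a named probe set among the 20239 genes of the array table, and Acat2, Hmgcs1 and Idi1 were not analysed here. No measured value was used to choose them, but the list was drawn up with earlier results of these data known.

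RNA came from the forebrain at embryonic day 15, with 1 embryo on each of 20 Affymetrix Mouse Gene ST 1.0 arrays. Ts1Cje mice carry a segmental trisomy, an extra copy of a part of mouse chromosome 16 with counterparts of human chromosome 21 genes, and are used as a model of Down syndrome. Apigenin is a flavone found in parsley and chamomile, and it reached the embryos through the mother. The 4 groups had 5 embryos each: WT on plain powdered chow, Ts1Cje on plain powdered chow, WT on apigenin chow and Ts1Cje on apigenin chow. All embryos came from Ts1Cje males mated to C57Bl/6J females, so WT embryos were the euploid offspring of the same kind of cross. Apigenin was given to breeding pairs at 2 g per kg of chow from mating on. Each group held 3 males and 2 females by the study's design text. The series title and design name apigenin as a treatment before birth, and the comparisons below ask how these genes differed between the chows, between the genotypes, and between the genotypes in their difference between chows.

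Cholesterol is built from acetyl-CoA through mevalonate and squalene, and fatty acids are built from the same acetyl-CoA by a separate set of enzymes. Both sets are switched on by the SREBP transcription factors, which are held in the endoplasmic reticulum by Insig proteins when sterols are plentiful and travel to the Golgi with Scap when sterols are scarce. Cholesterol does not pass readily from the mother's blood into the developing brain, so the embryonic forebrain makes much of its own. Dividing progenitors, growing axons and glia all need new membrane lipid.

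Values are log2 levels from RMA, a procedure that evens out the arrays before deposit, and a difference of 1 on this scale is a doubling. Array medians lay between 7.82 and 7.86, and every pair of arrays correlated at 0.991 or above over all genes. A list of 17 trisomic genes averaged 9.69 to 9.81 in the 10 WT embryos and 10.1 to 10.2 in the 10 Ts1Cje embryos, without overlap. Its count of genes higher in Ts1Cje was 16 of 17 on each chow. The forebrain neuron gene Neurod6 read 11.2 to 11.5 in the 20 embryos, and a list of 6 hindbrain genes averaged 5.95 to 6.37. Litters are not in the labels. The embryo numbers in the titles were 59 or lower for apigenin and 87 or higher for plain chow, so chow and whatever goes with the numbering cannot be told apart. Nothing says that the 5 embryos of a group came from separate litters, so p-values measure the spread between these embryos.

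As a set the 31 genes were on balance lower in the forebrain of apigenin embryos, by small amounts, with Scd1 standing well apart. The lean lay mostly in the enzymes of sterol synthesis, where 13 of 15 differences were below 0 in the average over genotypes. Among the fatty acid genes 5 of 9 were below 0, and among all genes 10222 of 20239. In WT, 6 of the 31 measured genes fell (Fdps, Fdft1, Cyp51, Fasn, Scd1 and Fads1) and 2 rose (Insig1 and Acly) at an adjusted p under 0.05 in limma. That is 25.8% of the measured genes, against 12.3% of all genes called in that comparison, of which 6.46% were higher and 5.85% lower. In Ts1Cje 6 genes also fell (Fdps, Fdft1, Nsdhl, Fasn, Scd1 and Fads1) and 2 rose (Stard4 and Acly), again 25.8%, against 16.3% of all genes, 8.09% higher and 8.17% lower. A total of 6 genes passed in both genotypes and 10 in either. In Ts1Cje the share of these genes was near that of all genes under some other settings. It was 9.68% against 9.36% at the study's threshold in limma, and 16.1% against 15.8% when only the groups compared entered the fit. Under others it stayed above that of all genes, such as 29% against 19.6% with array weights. With embryo number runs as blocks it was 29% against 18.7%, and without the dimmest 20% of probe sets 25.8% against 22.8%. The WT count was 5 without replicate 3 or without replicate 4 of WT on apigenin, or 16.1% against 9.42% and 11.3% of all genes. The Ts1Cje count was 5 without replicate 1 or 4 of Ts1Cje on plain chow and without replicate 2 or 3 of Ts1Cje on apigenin. That is 16.1%, against 12.5%, 13%, 14.7% and 13% of all genes in that order.

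Averaged over the genotypes, 12 genes fell and 4 rose, which is 51.6% of the measured genes against 25.9% of all genes. Over all genes 13.8% were higher and 12% lower in that comparison. The genes that passed only in this larger comparison were Insig2, which rose, and Mvk, Mvd, Sqle, Msmo1 and Sc5d, which fell. Leaving out the dimmest 40% of probe sets kept all 31 genes. It narrowed the gap to all genes in the average and in WT, but not in Ts1Cje. The shares were then 61.3% against 45.3% in the average, 32.3% against 25.2% in WT and 41.9% against 31.6% in Ts1Cje. The median log2 difference of the measured genes was -0.06 in WT, -0.07 in Ts1Cje and -0.06 averaged, against -0.01, 0.01 and 0.00 for all genes. In these bulk samples a smaller number of cells that express a gene and less RNA per cell cannot be told apart.

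**Figure D1:**
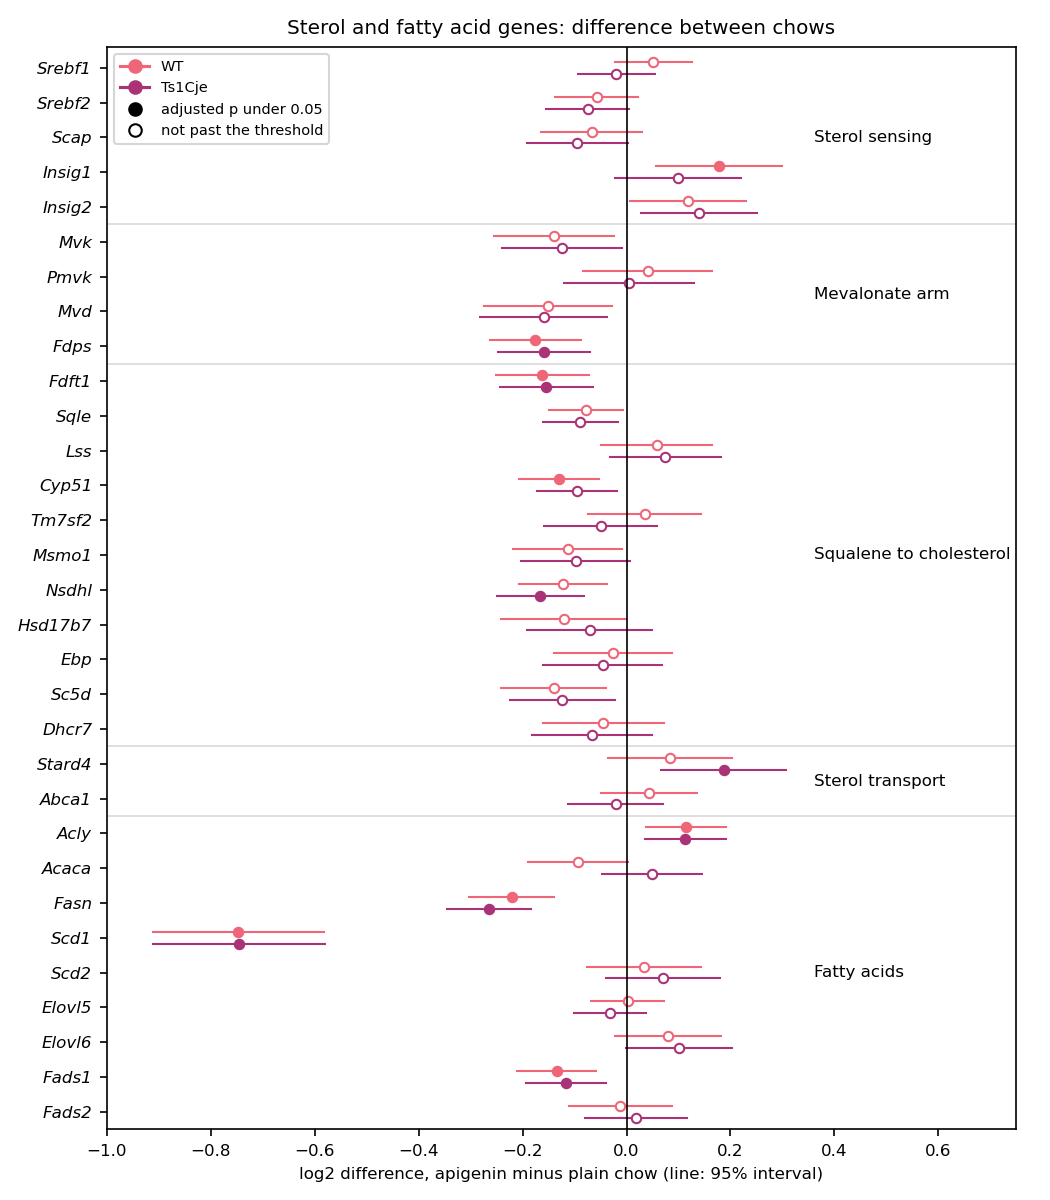
Log2 difference between apigenin and plain chow for the 31 measured genes, grouped by role, with 95% intervals from limma, in WT and Ts1Cje (5 embryos per group). Filled points have an adjusted p under 0.05. Scd1 lies at -0.75 in both genotypes, and every other gene lies between -0.26 and 0.19.

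The groups of 5 did not overlap at all for 9 of the 31 genes in WT, where 9.98% of all genes had this property. These were Scd1, Fasn, Fads1, Fdps, Fdft1, Cyp51, Sqle, Sc5d and Hsd17b7, and each was lower on apigenin. In Ts1Cje there were 4, Scd1, Fasn, Fdps and Nsdhl, against 14.5% of all genes, so the share there was not above that of all genes. When both genotypes were put side by side, all 10 apigenin embryos lay below all 10 plain chow embryos for Scd1, Fasn and Fdps. The share of all genes separated in this way was not computed.

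The promoters of 24 measured genes were in the RefSeq table (GRCm38.p6), each from 250 bases before to 50 after the gene's start. Among the 10 genes called in either genotype the table held Acly, Cyp51, Fasn, Insig1 and Nsdhl. Shown here are Fasn, the gene with the clearest fall among these 5, and Insig1 and Acly, which rose, so that the promoters of genes that moved in opposite directions can be set side by side. Capitals mark matches on either strand to 4 motifs. The core of a sterol regulatory element was searched as CACNCCAC and the E-box as CACGTG. The box bound by the factor NF-Y was searched as CCAAT. The GC box, bound by Sp1, was searched as GGGCGG. SREBP is known to act together with NF-Y and Sp1. The windows are chr11:120824498-120824797 on the minus strand for Fasn, chr5:28071162-28071461 on the plus strand for Insig1 and chr11:100527951-100528250 on the minus strand for Acly.
Fasn: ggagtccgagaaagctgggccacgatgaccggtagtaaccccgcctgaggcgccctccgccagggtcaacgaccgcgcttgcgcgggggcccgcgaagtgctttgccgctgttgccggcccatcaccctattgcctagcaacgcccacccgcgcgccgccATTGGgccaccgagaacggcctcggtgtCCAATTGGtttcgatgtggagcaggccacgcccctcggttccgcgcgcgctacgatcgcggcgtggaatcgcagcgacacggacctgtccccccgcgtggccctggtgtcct
Insig1: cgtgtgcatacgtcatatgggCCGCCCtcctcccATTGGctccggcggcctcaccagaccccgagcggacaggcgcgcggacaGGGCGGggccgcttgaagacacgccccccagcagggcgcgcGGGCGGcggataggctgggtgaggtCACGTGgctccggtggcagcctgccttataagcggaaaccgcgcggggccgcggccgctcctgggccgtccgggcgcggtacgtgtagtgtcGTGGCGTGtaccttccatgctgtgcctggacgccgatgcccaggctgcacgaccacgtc
Acly: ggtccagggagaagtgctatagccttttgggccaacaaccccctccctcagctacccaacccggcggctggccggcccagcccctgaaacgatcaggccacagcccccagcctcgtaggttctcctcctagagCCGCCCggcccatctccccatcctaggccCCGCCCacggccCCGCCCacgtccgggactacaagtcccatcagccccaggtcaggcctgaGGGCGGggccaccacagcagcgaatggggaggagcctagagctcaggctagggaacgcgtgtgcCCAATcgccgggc

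The Fasn window, which belongs to a gene that fell, held 3 CCAAT boxes, at bases 161 to 165, 189 to 193 and 192 to 196 counted from its first base, the last pair overlapping on opposite strands. It held no GGGCGG. The Insig1 window held 1 sterol element core at bases 242 to 249, just before the start, as well as 1 E-box, 1 CCAAT box and 3 GC boxes. The Acly window held 4 GC boxes and 1 CCAAT box that lies after the start. Of the promoters not shown, Nsdhl had 4 CCAAT boxes and Cyp51 had 1, and each had 1 GC box.

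CCAAT occurred for 19 of the 24 measured genes, against 37.4% of all 32851 windows in the table. The measured genes were counted by gene and the table by window, and the table is not limited to genes on the array. GGGCGG was also in 19 of 24, against 35.7%. CACGTG was in 7 of 24 against 7.15%, and CACNCCAC in 1 of 24, that of Insig1, against 6.24%. Of the genes with a window called in the average over genotypes, CCAAT was found for 7 of 7 that fell and 3 of 3 that rose. It thus did not separate the directions. In the last 150 bases of each window CCAAT was in 16 of 24 against 23.4%, GGGCGG in 11 against 28.8%, CACGTG in 2 against 4.35% and CACNCCAC in 1 against 3.23%. The E-box count thus depended on the width of the window. A match describes these letters only.

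The first group by role is the machinery that senses sterols. Insig1 and Insig2, which hold Scap and the SREBPs back in the endoplasmic reticulum, were the only genes of this group that moved, and both rose. On plain chow the 5 WT embryos read 9.93, 9.75, 9.86, 9.94 and 9.79 for Insig1, and the 5 Ts1Cje embryos 9.92, 9.78, 9.79, 9.77 and 9.85. On apigenin the WT embryos read 10.07, 9.90, 10.02, 9.99 and 10.17, and the Ts1Cje embryos 9.86, 9.87, 9.86, 9.90 and 10.13. Replicate 5 of each apigenin group was the highest of its group, and the groups overlapped in both genotypes. Insig1 was higher by 0.18 in WT (SE 0.06, limma adjusted p = 0.0493) and by 0.10 in Ts1Cje (SE 0.06, adjusted p = 0.293), and rose by 0.14 averaged (adjusted p = 0.0153). The WT call lay at the edge of the threshold and was kept in 9 of 33 alternative settings.

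Insig2 ranged from 9.08 to 9.31 over the 10 plain chow embryos and from 9.22 to 9.45 over the 10 apigenin embryos, 5 of which exceeded every plain chow embryo. It rose by 0.13 averaged (SE 0.04, limma adjusted p = 0.0146). Scap, the escort, differed by -0.08 (adjusted p = 0.0791), and Srebf2, the SREBP gene best known for cholesterol synthesis, by -0.07 (adjusted p = 0.0821). Srebf1, known for fatty acid synthesis, differed by 0.02, with a 95% interval from -0.04 to 0.07.

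In the mevalonate arm 3 of the 4 measured enzymes fell in the average over genotypes, where 12% of all genes were lower. Fdps, which makes farnesyl diphosphate for sterols and for prenylated proteins, passed in each genotype as well. Fdps stood at 8.49, 8.33, 8.38, 8.43 and 8.44 in WT and 8.41, 8.32, 8.37, 8.34 and 8.38 in Ts1Cje on plain chow. With apigenin Fdps stood at 8.26, 8.29, 8.21, 8.14 and 8.30 in WT and 8.12, 8.15, 8.27, 8.28 and 8.21 in Ts1Cje. The lowest plain chow embryo, at 8.32, lay above the highest apigenin embryo, at 8.30. Fdps fell by 0.18 in WT (SE 0.04, limma adjusted p = 0.00881) and by 0.16 in Ts1Cje (SE 0.04, adjusted p = 0.0128).

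Mvk, which phosphorylates mevalonate, fell by 0.13 averaged over genotypes (SE 0.04, limma adjusted p = 0.0158). Mvd, the decarboxylase of the arm, fell by 0.16 (SE 0.04, adjusted p = 0.00785). For each of these genes 3 of the 10 apigenin embryos lay below every plain chow embryo, so the ranges overlapped broadly. Pmvk, which acts between them, differed by 0.02 with a 95% interval from -0.07 to 0.11.

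From squalene to cholesterol 6 of 11 enzymes fell in the average and none rose, where 12% of all genes were lower and 13.8% higher. Fdft1 is squalene synthase, the step that commits farnesyl diphosphate to sterols. Fdft1 stood at 10.90, 10.98, 10.96, 11.03 and 11.00 in WT and 10.99, 10.97, 10.95, 11.03 and 10.95 in Ts1Cje on plain chow. With apigenin Fdft1 stood at 10.80, 10.77, 10.81, 10.81 and 10.87 in WT and 10.79, 10.78, 10.79, 10.76 and 11.01 in Ts1Cje. Replicate 5 of Ts1Cje on apigenin, at 11.01, read like the plain chow embryos, and the other 9 apigenin embryos lay below all 10 of them. Fdft1 fell by 0.16 in WT (SE 0.04, limma adjusted p = 0.0164) and by 0.15 in Ts1Cje (SE 0.04, adjusted p = 0.0166).

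Cyp51, the lanosterol demethylase, followed the same direction. Cyp51 stood at 10.35, 10.45, 10.33, 10.42 and 10.29 in WT and 10.32, 10.23, 10.27, 10.30 and 10.35 in Ts1Cje on plain chow. With apigenin Cyp51 stood at 10.24, 10.23, 10.23, 10.22 and 10.28 in WT and 10.16, 10.21, 10.19, 10.16 and 10.27 in Ts1Cje. Apart from replicate 5, the WT apigenin embryos lay within 10.22 to 10.24, and in WT the chows did not overlap. Cyp51 fell by 0.13 in WT (SE 0.04, limma adjusted p = 0.0238), and the difference was -0.09 in Ts1Cje (SE 0.04, adjusted p = 0.0901).

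Nsdhl, a sterol dehydrogenase that works with Msmo1 to remove methyl groups, passed in the other genotype. Nsdhl stood at 10.28, 10.17, 10.24, 10.36 and 10.26 in WT and 10.38, 10.23, 10.24, 10.35 and 10.26 in Ts1Cje on plain chow. With apigenin Nsdhl stood at 10.12, 10.08, 10.14, 10.16 and 10.20 in WT and 10.14, 10.11, 10.10, 10.10 and 10.18 in Ts1Cje. In Ts1Cje all plain chow embryos were above all apigenin embryos, while in WT replicate 2 on plain chow lay within the apigenin range. Nsdhl fell by 0.17 in Ts1Cje (SE 0.04, limma adjusted p = 0.00681) and the difference was -0.12 in WT (SE 0.04, adjusted p = 0.0517).

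The interaction test gave Cyp51 0.04 (95% interval -0.07 to 0.14) and Nsdhl -0.04 (95% interval -0.16 to 0.08), so neither was shown to differ between genotypes in its difference between chows. Sqle, the squalene epoxidase, fell by 0.08 averaged (SE 0.02, limma adjusted p = 0.0147). Msmo1 fell by 0.11 (SE 0.04, adjusted p = 0.0319), a call kept without 11 of the 20 arrays in turn, and Sc5d, a sterol desaturase, by 0.13 (SE 0.03, adjusted p = 0.00649), with 8 of 10 apigenin embryos under the whole plain chow range for Sc5d. The other 5 enzymes did not pass. Hsd17b7 was at -0.10 (adjusted p = 0.0954), Dhcr7, which makes cholesterol from its last precursor, at -0.06, Ebp at -0.04, Tm7sf2 at -0.01 and Lss, which closes the sterol rings, at 0.07.

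Sterol transport was represented by Stard4 and Abca1. Stard4, a soluble carrier that moves sterol between membranes, rose in Ts1Cje. Stard4 stood at 8.08, 7.94, 8.06, 8.16 and 8.09 in WT and 7.98, 8.20, 7.94, 7.98 and 7.98 in Ts1Cje on plain chow. With apigenin Stard4 stood at 8.03, 8.24, 8.18, 8.04 and 8.25 in WT and 8.09, 8.24, 8.26, 8.18 and 8.23 in Ts1Cje. Replicate 2 of Ts1Cje on plain chow, at 8.20, lay among the apigenin values, and the other 4 lay between 7.94 and 7.98. Stard4 rose by 0.19 in Ts1Cje (SE 0.06, limma adjusted p = 0.0301), and the difference was 0.08 in WT (SE 0.06, adjusted p = 0.41). The interaction, 0.10 with a 95% interval from -0.07 to 0.27, did not pass. Abca1, which exports cholesterol from cells, differed by 0.01 averaged, with a 95% interval from -0.05 to 0.08.

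**Figure D2:**
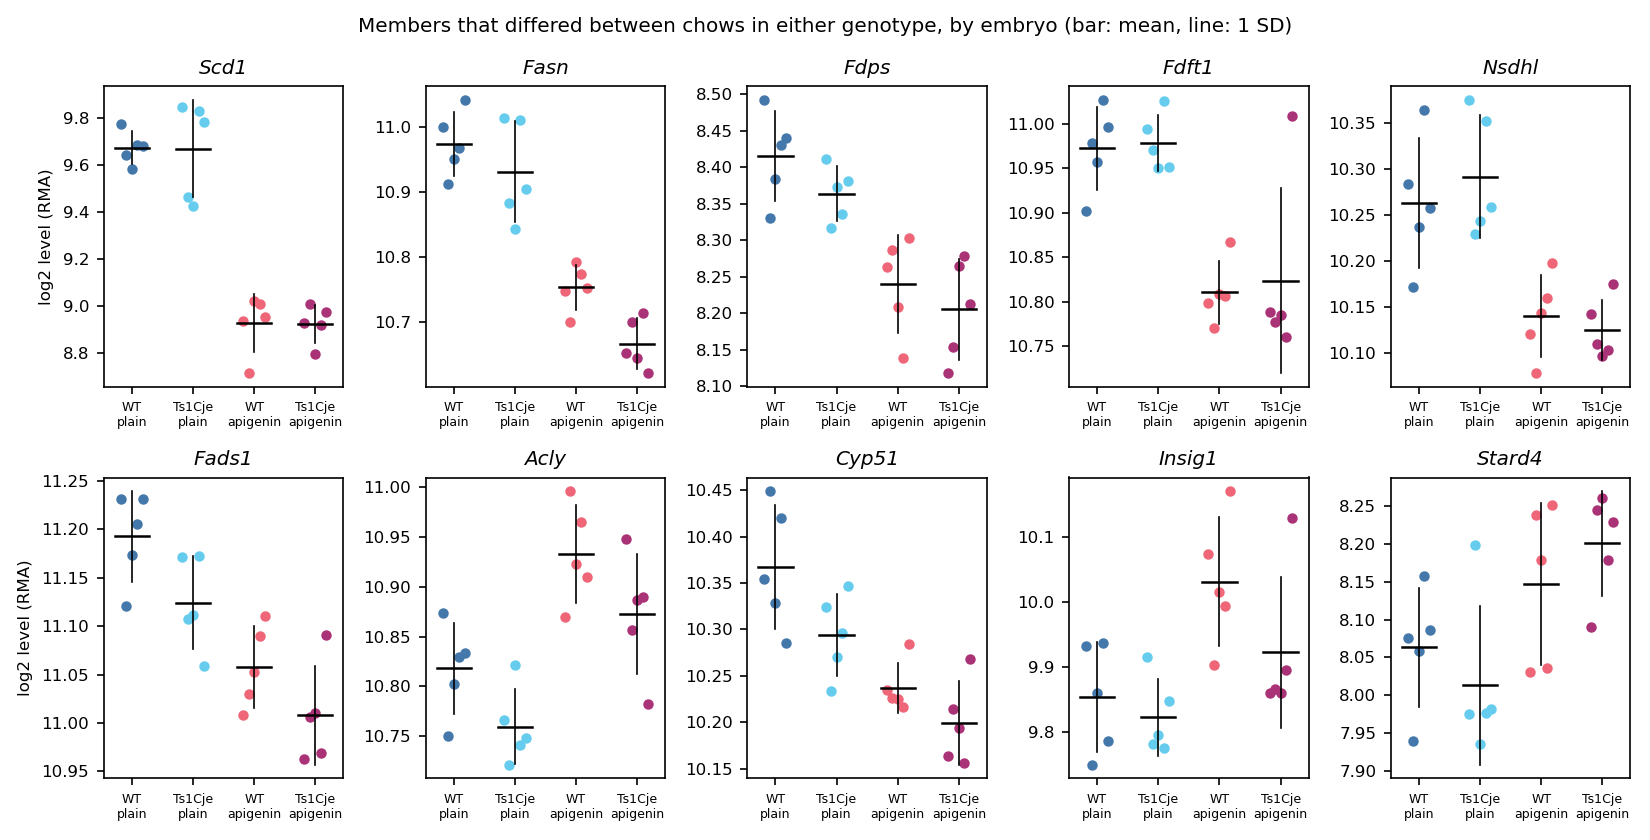
Log2 level in each of the 20 embryos for the 10 genes that passed between chows in either genotype, with the group mean and 1 SD (n = 5 embryos per group). The vertical axis is set for each gene and does not start at 0. For Scd1, Fasn and Fdps all 10 apigenin embryos lie below all 10 plain chow embryos. How many of all genes do so was not counted.

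Among the 9 fatty acid genes 3 fell and 1 rose in both genotypes. That is 44.4% in each genotype, against 12.3% of all genes in WT and 16.3% in Ts1Cje. Scd1, a stearoyl-CoA desaturase that puts the first double bond into saturated fatty acids, had the largest difference between chows of the 31 genes. On plain chow the 5 WT embryos read 9.77, 9.64, 9.58, 9.68 and 9.68 for Scd1, and the 5 Ts1Cje embryos 9.85, 9.46, 9.43, 9.83 and 9.78. On apigenin the WT embryos read 8.93, 8.71, 9.02, 9.01 and 8.95, and the Ts1Cje embryos 8.93, 9.01, 8.79, 8.92 and 8.97. The highest apigenin embryo, at 9.02, was well under the lowest plain chow embryo, at 9.43. Scd1 fell by 0.75 in WT (SE 0.08, limma adjusted p = 2.79e-05) and by 0.75 in Ts1Cje (SE 0.08, adjusted p = 7.43e-06), or 1.68-fold in each. By p it ranked 6 among 20239 genes in WT, 24 in Ts1Cje and 9 in the average.

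Scd2 encodes the desaturase isoform known as the main one of the developing brain. Scd2 stood at 12.31, 12.11, 12.17, 12.33 and 12.32 in WT and 12.24, 12.19, 12.19, 12.25 and 12.20 in Ts1Cje on plain chow. With apigenin Scd2 stood at 12.15, 12.22, 12.34, 12.29 and 12.42 in WT and 12.18, 12.35, 12.26, 12.28 and 12.34 in Ts1Cje. The values overlapped throughout. Scd2 differed by 0.03 in WT (95% interval -0.08 to 0.14) and by 0.07 in Ts1Cje (95% interval -0.04 to 0.18).

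Within each embryo the Scd1 value minus the Scd2 value changed by -0.78 in WT (SE 0.06) and by -0.82 in Ts1Cje (SE 0.09). The exact two-sided permutation test gave p = 0.0079 in each genotype, the smallest that 5 embryos against 5 allow with 252 assignments. Scd1 was singled out by its difference in these same data and Scd2 differed little, so this p is no separate support. In the values themselves the difference between chows was unequal for the 2 isoforms. Of their neighbours on chromosome 19, Scd3 fell by 0.20 averaged (limma adjusted p = 0.00341), and Scd4 differed by -0.09 (adjusted p = 0.304). Whether the probes of these close copies read each other's transcripts was not tested.

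Fasn, the synthase that builds palmitate, had the second smallest p of the 31 genes. Fasn stood at 11.00, 10.91, 10.95, 10.97 and 11.04 in WT and 11.01, 10.88, 10.84, 11.01 and 10.91 in Ts1Cje on plain chow. With apigenin Fasn stood at 10.75, 10.70, 10.79, 10.77 and 10.75 in WT and 10.65, 10.70, 10.64, 10.71 and 10.62 in Ts1Cje. All apigenin embryos lay at 10.79 or below and all plain chow embryos at 10.84 or above. Fasn fell by 0.22 in WT (SE 0.04, limma adjusted p = 9.59e-04) and by 0.26 in Ts1Cje (SE 0.04, adjusted p = 1.1e-04). Like the Scd1 calls, the Fasn calls were kept with any single array left out, in both genotypes.

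Fads1, a desaturase of polyunsaturated fatty acids, fell by less. Fads1 stood at 11.23, 11.12, 11.17, 11.21 and 11.23 in WT and 11.17, 11.11, 11.11, 11.17 and 11.06 in Ts1Cje on plain chow. With apigenin Fads1 stood at 11.01, 11.03, 11.05, 11.09 and 11.11 in WT and 10.96, 11.01, 11.01, 10.97 and 11.09 in Ts1Cje. In WT the chows did not overlap, and in Ts1Cje replicate 5 on apigenin, at 11.09, lay above replicate 5 on plain chow, at 11.06. Fads1 fell by 0.13 in WT (SE 0.04, limma adjusted p = 0.0185) and by 0.12 in Ts1Cje (SE 0.04, adjusted p = 0.0333). Fads2, its partner in the same pathway, differed by 0.00 averaged, with a 95% interval from -0.07 to 0.07.

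Acly, which splits citrate to supply the acetyl-CoA for both pathways, moved the other way. Acly stood at 10.87, 10.75, 10.80, 10.83 and 10.83 in WT and 10.77, 10.72, 10.82, 10.74 and 10.75 in Ts1Cje on plain chow. With apigenin Acly stood at 10.87, 11.00, 10.92, 10.96 and 10.91 in WT and 10.95, 10.86, 10.89, 10.89 and 10.78 in Ts1Cje. In each genotype 1 apigenin embryo lay within the plain chow range, replicate 1 in WT and replicate 5 in Ts1Cje. Acly rose by 0.11 in WT (SE 0.04, limma adjusted p = 0.0493) and by 0.11 in Ts1Cje (SE 0.04, adjusted p = 0.0426). These calls were near the threshold and were kept in 10 and 17 of 33 alternative settings.

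The other fatty acid genes did not pass between chows. Elovl6, which lengthens palmitate, was at 0.09 averaged (SE 0.03, limma adjusted p = 0.0617), with 6 of 10 apigenin embryos above every plain chow embryo. Elovl5, which lengthens polyunsaturated fatty acids, differed by -0.01. Acaca, the carboxylase that makes malonyl-CoA, was at -0.09 in WT and 0.05 in Ts1Cje.

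The difference between chows was alike in sign in WT and Ts1Cje for 25 of the 31 genes, a count that was not made over all genes. These are separate embryos in separate groups, so no control is shared, though both comparisons share the split of embryo numbers. The interaction test called 0 of the 31 genes in limma, and also 0% of all genes. At an unadjusted p under 0.05 it gave 1 gene, Acaca, at 0.14 (95% interval 0.01 to 0.28, limma adjusted p = 1). For Scd1 the interaction was 0.00 with a 95% interval from -0.23 to 0.23.

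Between genotypes limma called none of the 31 genes. The count was 0 on plain chow, where 0.311% of all genes passed, 0 on apigenin, also with 0.311%, and 0 in the average over chows, with 0.623%. At an unadjusted p under 0.05 there were 2, 3 and 7 genes, or 6.45%, 9.68% and 22.6%, against 6.69%, 5.23% and 8.92% of all genes, and the methods' t-test, also adjusted by Benjamini-Hochberg, called 0 in each. None of the 31 genes was named among the trisomic genes checked here.

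On apigenin and in the average over chows the smallest p-values between genotypes belonged to the mevalonate enzymes Pmvk and Mvd. On plain chow the smallest was that of Tm7sf2, a sterol reductase, at 0.13 in Ts1Cje over WT (SE 0.05, limma adjusted p = 0.64). Mvd stood at 9.49, 9.13, 9.19, 9.31 and 9.24 in WT and 9.24, 9.10, 9.00, 9.24 and 9.16 in Ts1Cje on plain chow. With apigenin Mvd stood at 9.14, 9.03, 9.09, 9.16 and 9.18 in WT and 8.98, 9.00, 8.91, 9.03 and 9.02 in Ts1Cje. The Ts1Cje values were on the whole lower and overlapped WT on plain chow. On apigenin they just failed to overlap, with the highest Ts1Cje embryo at 9.028 and the lowest WT embryo at 9.034. Genotypes did not overlap on apigenin for 2 of the 31 genes, Mvd and Srebf1, against 289 of all 20239 genes. On plain chow this held for 0, against 270 of all genes. Averaged over chows Mvd differed by -0.13 in Ts1Cje (SE 0.04, limma adjusted p = 0.262) and Pmvk by -0.12 (SE 0.04, adjusted p = 0.306).

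Pmvk stood at 9.53, 9.45, 9.35, 9.53 and 9.53 in WT and 9.45, 9.31, 9.20, 9.42 and 9.48 in Ts1Cje on plain chow. With apigenin Pmvk stood at 9.55, 9.36, 9.49, 9.59 and 9.59 in WT and 9.31, 9.28, 9.36, 9.46 and 9.46 in Ts1Cje. The genotypes overlapped on both chows. Fasn was at -0.06 in the same average (limma adjusted p = 0.477), and Scd1 had equal group means on each chow, 9.67 in both genotypes on plain chow and 8.93 and 8.92 on apigenin.

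Within a group the genes varied little. The SD within groups, pooled over the 4 groups, ran from 0.04 for Elovl5 to 0.13 for Scd1, with a median of 0.07, against a median of 0.10 for all genes. The 15 measured enzymes from Mvk to Dhcr7 were counted above or below their group mean in each embryo, in the order of the replicates. On plain chow 11, 5, 2, 13 and 9 of 15 were above it in WT, and 14, 0, 1, 13 and 9 in Ts1Cje. On apigenin the counts were 8, 1, 5, 10 and 13 in WT, and 4, 8, 5, 5 and 15 in Ts1Cje. Some embryos thus had nearly all of these enzymes on one side of the mean, such as replicate 5 of Ts1Cje on apigenin with an average deviation of 0.08, and others were mixed. The same count over all genes was not made. Genes read on the same array share its RNA, so these are not independent observations.

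**Figure D3:**
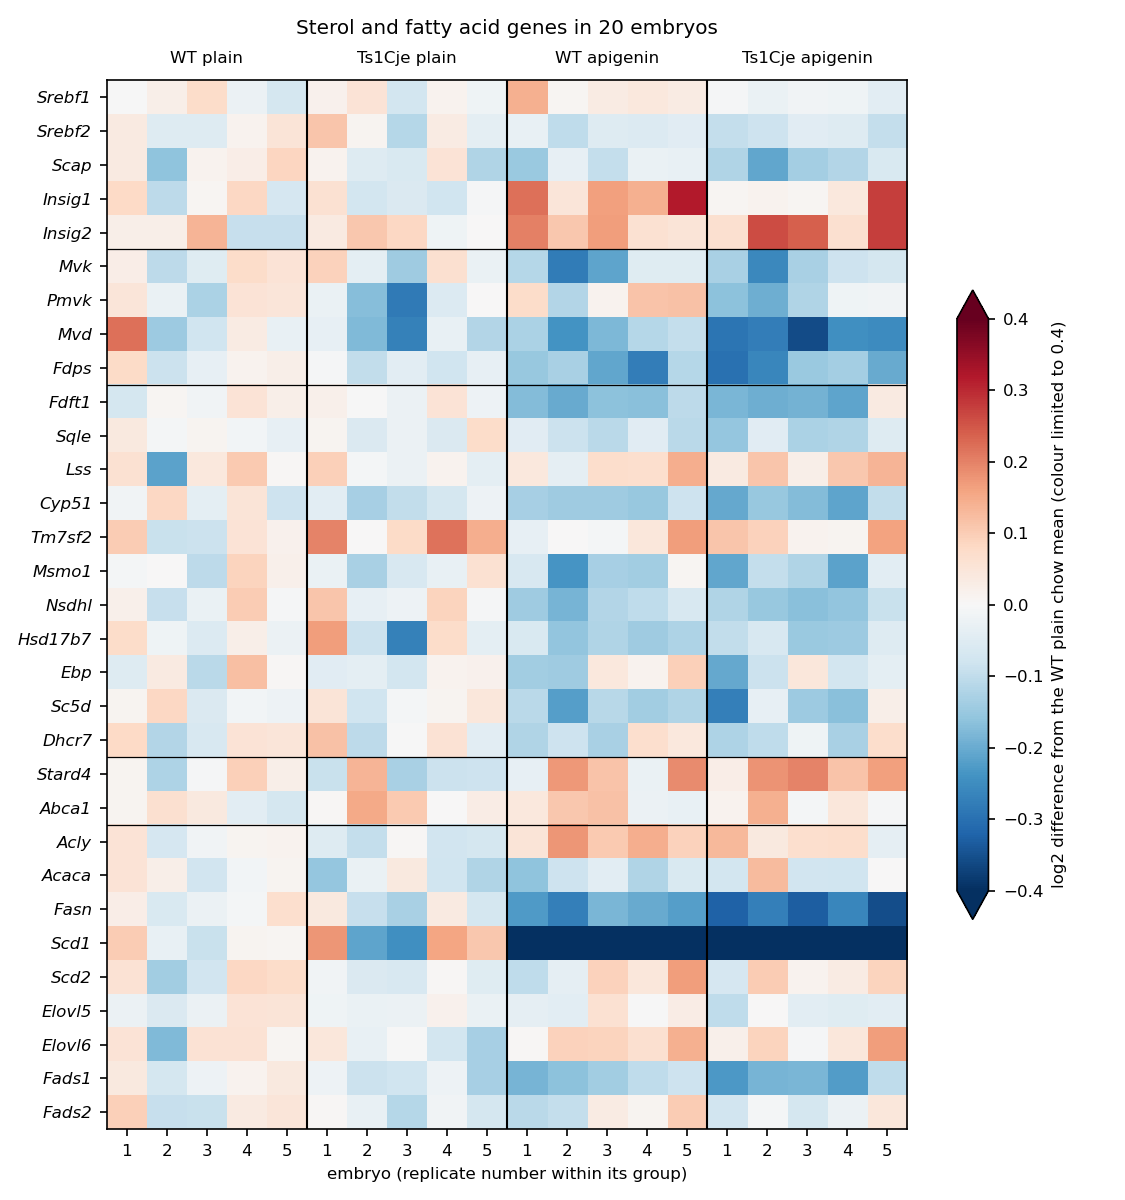
Log2 difference of each embryo from the WT plain chow mean of the same gene, for 31 genes (rows, grouped by role) and 20 embryos (columns, 5 per group); the colour scale ends at 0.4 in each direction. Scd1 is beyond the lower end in all 10 apigenin embryos, Fasn is lower in all 10, and replicate 5 of Ts1Cje on apigenin is less blue than its group for most sterol enzymes.

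The embryo numbers fell into 4 runs, each with both genotypes. Scd1 averaged 9.74 and 9.62 in the runs on plain chow (4 and 6 embryos) and 8.89 and 8.98 in the runs on apigenin (6 and 4 embryos). Fasn averaged 10.98 and 10.93 against 10.70 and 10.73. For both genes the runs of one chow differed by far less than the chows did. No run held both chows, so these means cannot tell chow from numbering, and no difference between chows within a run can be given.

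Other genes of these pathways were taken from lists drawn up by role, and their counts stand beside the 25.9% of all genes called in the average over genotypes. Of 14 further genes of sterol synthesis and uptake, 1 rose and 4 fell in that average, or 35.7%. Gramd1b, which carries cholesterol away from the plasma membrane, fell by 0.37 (SE 0.03, limma adjusted p = 6.78e-08). Lrp1 and Scarb1, which take up lipoproteins, each fell by 0.18 (adjusted p = 1.93e-04 and 6.26e-04). Lbr, a nuclear envelope protein that is also a sterol reductase, rose by 0.26 (adjusted p = 1.86e-05).

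Of 11 genes that process or degrade SREBP and its partners, 3 rose and 1 fell, or 36.4%. Faf2 and Erlin2, which act in the removal of proteins from the endoplasmic reticulum, rose by 0.16 and 0.19 (limma adjusted p = 8.03e-05 and 8.64e-04). Mbtps1, the protease that makes the first cut in SREBP, rose by 0.08 (adjusted p = 0.0268), and Pgrmc1, a heme-binding membrane protein, fell by 0.09 (adjusted p = 0.05).

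Of 13 genes that LXR controls or that remove sterols, 0 rose and 4 fell, or 30.8%, a share near that of all genes. Nceh1, a cholesteryl ester hydrolase, fell by 0.35 (SE 0.05, limma adjusted p = 4.41e-05). Apoe, the main apolipoprotein of brain, fell by 0.24 (SE 0.04, adjusted p = 3.43e-04).

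Of 37 further genes of fatty acid synthesis and handling, 1 rose and 13 fell, or 37.8%. Fads3, a relative of Fads1, fell by 0.29 (SE 0.04, limma adjusted p = 2.87e-05), and Elovl4, which makes very long chains, by 0.21 (SE 0.03, adjusted p = 3.88e-05). Thrsp, a lipogenic protein, and Slc25a1, the carrier that exports citrate to Acly, each fell by 0.19 (adjusted p = 3.21e-04 and 3.49e-04). Of 18 genes of fatty acid oxidation, 4 rose and 2 fell, or 33.3%, Hadh rising by 0.22 (adjusted p = 5.43e-04).

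Markers of several cell types differed between chows alongside these genes, and their counts in the average over genotypes again stand beside 25.9% of all genes. All 19 measured mitosis genes rose in each genotype. Their mean level was 8.91 to 9.13 in WT and 8.89 to 9.19 in Ts1Cje on plain chow, and 9.32 to 9.50 and 9.34 to 9.52 on apigenin, without overlap between chows. In the average over genotypes 7 of 10 radial glia markers and 8 of 8 markers of intermediate progenitors rose and none fell, with Sox2 higher by 0.36 and Neurog2 by 0.56 (limma adjusted p = 1.43e-07 and 4.19e-07). The radial glia list averaged 9.77 to 9.93 in WT and 9.77 to 9.90 in Ts1Cje on plain chow, and 10.01 to 10.18 and 10.07 to 10.15 on apigenin. The intermediate progenitor list averaged 8.53 to 8.67 and 8.42 to 8.67 on plain chow, and 8.87 to 9.04 and 8.88 to 9.04 on apigenin. Among 9 neuron markers 2 rose and 4 fell, with list means of 11.38 to 11.51 over the 10 plain chow embryos and 11.35 to 11.44 over the 10 apigenin embryos. Among 8 interneuron markers 3 rose and 3 fell, Npy by 0.59 (adjusted p = 1.21e-07), and the list means overlapped, at 10.08 to 10.31 and 10.15 to 10.34.

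Of the glial lists, 5 of 7 markers of oligodendrocyte precursors fell and 0 rose, and 3 of 7 astrocyte markers fell and 1 rose. The astrocyte list averaged 8.31 to 8.41 in WT and 8.33 to 8.43 in Ts1Cje on plain chow, and 8.20 to 8.30 and 8.21 to 8.33 on apigenin. The oligodendrocyte precursor list averaged 7.94 to 8.14 over the 10 plain chow embryos and 7.75 to 7.90 over the 10 apigenin embryos. Of 5 measured erythroid markers 2 rose and 1 fell. The 2 that rose were the embryonic globin genes Hbb-y and Hba-x, higher on apigenin by 2.78 and 0.75 (limma adjusted p = 3.98e-09 and 2.14e-07). The list averaged 7.17 to 7.37 and 6.96 to 7.39 on plain chow against 7.83 to 8.25 and 7.77 to 8.17 on apigenin. That difference of the list mean lay in these 2 genes, mostly in Hbb-y, and not in the list as a whole. Of 7 choroid plexus markers 2 rose and 1 fell, with overlapping list means of 8.31 to 8.50 and 8.40 to 8.59. Of the endothelial list 2 of 8 fell, or 25%, the share of all genes being 25.9%, and of the meningeal and microglial lists 0 of 7 and 0 of 8 passed in limma, with 0 and 1 at an unadjusted p under 0.05.

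With the mean mitosis level of each embryo as a covariate, limma called 0 of the 31 genes in either genotype, with 5 in WT and 4 in Ts1Cje at an unadjusted p under 0.05, and no more than 0.0593% of all genes in any chow comparison. The Scd1 difference was then -0.45 in WT (SE 0.11, adjusted p = 0.195) and -0.41 in Ts1Cje (SE 0.12, adjusted p = 0.128). Fasn was at -0.15 and -0.18. The other differences called within a genotype also shrank, such as Fdps to -0.10 in WT and -0.08 in Ts1Cje, except those of Fdft1 and Insig1. Fdft1 was at -0.17 in each genotype and Insig1 at 0.33 in WT, as large as before or larger. The SE of every gene was larger than without the covariate. In the average over genotypes Mvd, Sqle and Msmo1, which had fallen, were then at 0.10, 0.05 and 0.00 (adjusted p = 0.557, 0.656 and 0.992). Because the mitosis level did not overlap between chows, its part and that of the chow cannot be told apart here. The part of the other marker lists in these results was not tested.

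**Figure D4:**
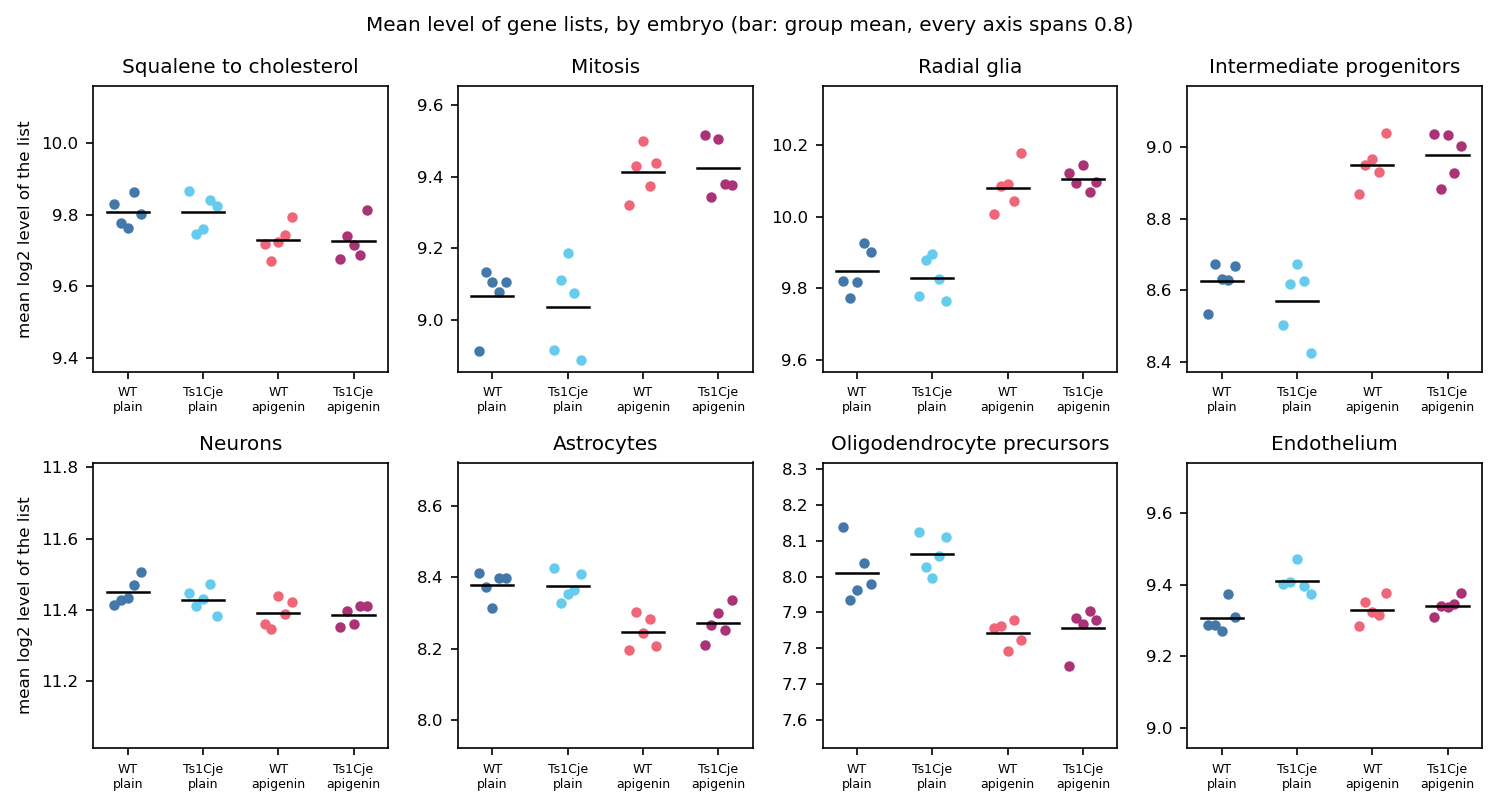
Mean log2 level per embryo of the 11 enzymes from squalene to cholesterol and of 7 marker lists, with the group mean as a bar (5 embryos per group); every axis spans the same range of 0.8 but starts at a different level. The mitosis, radial glia and intermediate progenitor lists are higher in all 10 apigenin embryos than in any plain chow embryo.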

How the data were processed

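The authors deposited a log2 expression level for each probe set and array. RMA is named in the submitters' processing notes, while its version, the chip definition and the build were not given in the sources used here. The table does not state its log base, which was read from the range of the values and the use of RMA. RMA evens out the arrays and compresses low levels, which makes differences of dim genes look smaller. Of 21225 probe sets, 20239 had 1 gene symbol and were tested, and 986 were unnamed. Groups came from the genotype and treatment labels, because all titles carry the strain name.

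A mean for each of 4 groups was fitted with lmFit and eBayes (limma 3.58.1, R 4.3.3) over all 20 arrays. Contrasts were tested on both sides, with p-values adjusted by Benjamini-Hochberg over all 20239 genes and called under 0.05. The scripts were tested on simulated data. The members, lists and tests were chosen with earlier results of these data known. Values in every embryo are given for members called between chows in either genotype and for the 2 with the smallest p between genotypes, Scd2 being added as the isoform of Scd1, and at most 4 genes per pathway list, by p, are named, with Scd3 and Scd4 added as neighbours of Scd1. Promoter sequences are from RefSeq, and motifs were searched on both strands. Alternatives were the t-test and thresholds of the study's methods (p of 0.001 and a false discovery rate of 10%), filters on the dimmest 20% and 40%, renewed normalization, array weights, other priors, blocks of embryo number runs, covariates and leaving out each array.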

Additional observations from a re-analysis of the deposited data

Results flagged for a closer look

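Within a group of 5, a gene was looked at again where the gap between its most extreme embryo and the nearest other exceeded 0.71 of the group's range. This held for 10 of 124 groups, where chance gives about 1 in 20. Replicate 5 of Ts1Cje on apigenin was high for Fdft1, at 11.01 with the next embryo at 10.8, and for Insig1, at 10.1 with the next at 9.90. Replicate 5 of WT on apigenin was high for Cyp51, at 10.3. Replicate 2 of WT on apigenin was low for Scd1, at 8.71 with the next embryo at 8.93, and for Sc5d, at 10.00. Replicate 1 of the same group was high for Srebf1, at 8.56. On plain chow replicate 2 of Ts1Cje was high for Stard4, at 8.20 with the next at 7.98, and replicate 4 of Ts1Cje was high for Elovl5, at 10.6. Replicate 2 of WT on plain chow was low for Scap, at 9.89, and for Elovl6, at 10.8. None of these embryos was left out of the values reported.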

How the results depend on the processing

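In limma with all 20 arrays, 8 of the 31 genes passed between chows in WT, 8 in Ts1Cje and 16 in the average. At the unadjusted threshold of the study's methods (p of 0.001) the methods' t-test gave 3, 2 and 10, or 9.68%, 6.45% and 32.3% against 4.27%, 6.58% and 16.2% of all genes. In limma at the study's threshold the counts were 3, 3 and 8, or 9.68%, 9.68% and 25.8% against 7.1%, 9.36% and 15.7%. With a fit on the groups compared alone the counts were 4 in WT (12.9% against 7.78%) and 5 in Ts1Cje (16.1% against 15.8%). In Ts1Cje the share was thus close to that of all genes under each of these settings. Without the dimmest 40% of probe sets the counts were 10, 13 and 19. That is 32.3%, 41.9% and 61.3% against 25.2%, 31.6% and 45.3% of the genes left. With the mitosis level as a covariate all 3 counts were 0. Leaving out 1 array gave 5 to 9 in WT, 5 to 9 in Ts1Cje and 15 to 18 in the average. The shares were 16.1% to 29% in each genotype. Those of all genes were 9.42% to 12.4% in WT and 12.5% to 17.5% in Ts1Cje. In the average the shares were 48.4% to 58.1% against 23.7% to 26.6%. No gene called within a genotype turned its sign in any of the 33 settings. Of the genes called in the average, 3 did so under the mitosis covariate, Mvd at 0.0972, Sqle at 0.0472 and Msmo1 at 0.00267, and none under the other settings run. Scd1 and Fasn were kept in 32 of 33 in each genotype, while Insig1 in WT was kept in 9 and Acly in 10 in WT and 17 in Ts1Cje. Apart from the covariate, the cause of these changes was not tested; the other settings changed the threshold, the genes tested or the samples by construction. Counts between genotypes and of the interaction stayed at 0 under every setting run, and the t-test was not run on the interaction. No paired analysis was possible because the embryos carry no replicate number shared across groups. RMA values carry no signal over background, so dim genes could not be bounded.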
